A study of Mus musculus with 3 samples.

Results

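The beta connexins described here are *Gjb1*, *Gjb2*, *Gjb5*, and *Gjb6*, 4 of the 30854 gene symbols of an expression array. They were taken by their symbols from the table of non-normalized signals, on all 3 arrays. The members were chosen by their symbols with their signals and detection p-values already known, so these values are given as a description and no test is made on them. The array carried 19 connexin symbols, 6 of them beta connexins, and the other 2 beta symbols are not reported here. RNA came from wild-type embryos at the early headfold (EHF) stage, of which only the embryonic region was kept after a cut at its junction with the extraembryonic part. The 3 arrays, replicates 1, 2, and 3, are the only group, with no treatment, mutant, or second stage. The sample labels give the strain as Cd-1, whereas the methods of the study name ICR. Neither settles whether an array holds 1 embryo or several, so the spread between arrays may be technical.

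Connexins are membrane proteins that assemble into a channel in the membrane of one cell and dock with a matching channel of its neighbour. The resulting gap junction lets ions and small molecules pass directly between the cells. Beta connexins are best known from epithelia and glia. *Gjb1* encodes Cx32, found in hepatocytes and in myelinating Schwann cells, and *Gjb2* encodes Cx26, found in the supporting cells of the cochlea and in liver. *Gjb5* encodes Cx31.1, known from skin and placenta, and *Gjb6* encodes Cx30, known from cochlea and astrocytes.

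In the RefSeq annotation of GRCm38.p6, *Gjb2* and *Gjb6* are immediate neighbours among protein-coding genes, and the gene on the other side of *Gjb2* is another connexin gene, *Gja3*. *Gjb5* also has a connexin gene next to it, and *Gjb1* has none. The 250 bases before the start of *Gjb2* and of *Gjb6* are shown because these adjacent genes differed in the base composition of this stretch. Capitals mark the GC box GGGCGG, a binding sequence of Sp1 family factors, on either strand. The *Gjb2* stretch is chr14:57104703-57104952 and the *Gjb6* stretch is chr14:57133612-57133861, both read on the minus strand of GRCm38.p6, with sequences from RefSeq.
Gjb2: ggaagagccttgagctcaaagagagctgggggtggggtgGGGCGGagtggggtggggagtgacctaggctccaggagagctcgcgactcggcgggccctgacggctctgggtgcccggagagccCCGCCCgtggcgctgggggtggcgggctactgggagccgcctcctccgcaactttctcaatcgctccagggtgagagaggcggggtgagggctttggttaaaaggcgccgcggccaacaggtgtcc
Gjb6: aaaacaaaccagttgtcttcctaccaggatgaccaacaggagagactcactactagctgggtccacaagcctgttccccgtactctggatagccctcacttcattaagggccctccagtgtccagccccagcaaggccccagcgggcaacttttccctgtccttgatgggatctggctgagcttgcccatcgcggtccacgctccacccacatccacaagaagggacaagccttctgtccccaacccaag

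The *Gjb2* stretch held 18 CpG dinucleotides and 69.2% G and C, and the *Gjb6* stretch held 5 CpG and 56.8% G and C. Over 32851 such windows of mouse RefSeq starts, the medians were 6 CpG and 52.4% G and C. The GC box occurred at 2 places before *Gjb2* and at none before *Gjb6* or *Gjb5*, and 32.7% of all windows held it. *Gjb1* has 4 annotated starts, with 2, 1, 4, and 10 CpG in their windows, and of these the fourth held 3 GC boxes. The TATA box TATAAA was found before the fourth *Gjb1* start, at bases -29 to -24 from the start, and in 12.4% of all windows. Its match before *Gjb5* lay much farther from the start, at bases -243 to -238. The palindrome GCCNNNGGC, bound by AP-2 factors, was found once before *Gjb2*, where it overlaps a GC box, once before *Gjb5*, once before the third *Gjb1* start, and in 13.7% of all windows. Both strands were searched for each motif, and a match describes the sequence and not a bound site.

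**Figure D1:**
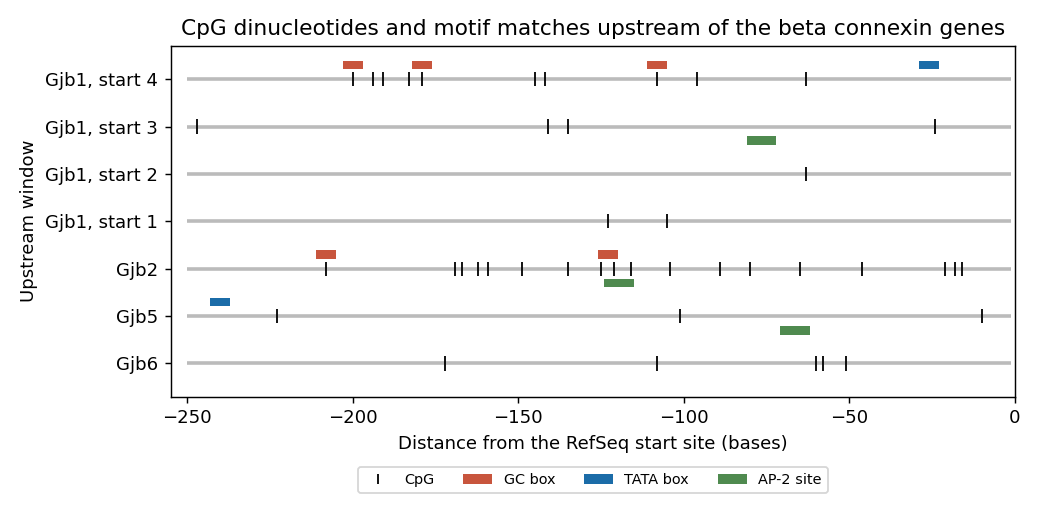
The 250 bases before each RefSeq start of the 4 genes, by distance from the start in bases, with CpG dinucleotides as ticks and matches of the GC box, TATA box, and AP-2 site as bars. The window of *Gjb2* held 18 CpG and that of its neighbour *Gjb6* held 5.

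The signals of all 4 genes lay in the range of background. The deposited detection p of a symbol with 1 probe gives the share of negative controls that were at least as bright on the same array, and it moved in steps of 1 in 936. For the 8190 symbols with several probes it is a combined value. Calls of these symbols enter every share and list count below, and a symbol called undetected need not have a low mean signal. The study set a detection p of 0.01 as its threshold, and the further demand that each of the 3 arrays pass it was made here. Both were met by 0 of the 4 beta connexins, and 20.6% of all symbols met it. On single arrays 0 of the 4 met it either, whereas 33% of all symbols met it on at least 1 array and 67% on none. Under a looser limit of 0.05, *Gjb2* alone passed, on replicate 1 only, where 44% of all symbols passed on at least 1 array. On all 3 arrays 0 of the 4 beta connexins and 24.7% of all symbols passed this looser limit. These shares describe the array, and nothing is read from them, since the calls were known when the genes were chosen.

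*Gjb2*, the gene of Cx26, had deposited log2 signals of 6.69, 6.64, and 6.42 on replicates 1, 2, and 3. The lowest log2 signal of a 1-probe symbol with a detection p above 0 and under 0.01, taken as the background level, was 6.69, 6.66, and 6.58 on the same arrays. *Gjb2* thus lay at the background level on replicates 1 and 2 and below it on replicate 3. Its detection p was 0.0448, 0.0746, and 0.380. This gene was read by 3 probes, and the p of several probes is a combined value. It was matched by the distribution of a sum of 3 detection p-values, which gave sums of 604, 716, and 1252 steps of 1 in 936, each at most 0.000456 from a whole number. The mean detection p of a single *Gjb2* probe was therefore 0.215, 0.255, and 0.446. Symbols with 1 probe and the same mean signal, within 0.002 on the log2 scale, had a median detection p of 0.00855, 0.0139, and 0.288. The mean signal thus ranked higher than the mean detection p on each array, but the 3 probes cannot be told apart in the table.

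*Gjb1*, the gene of Cx32, had log2 signals of 6.63, 6.53, and 6.44. Of the 936 controls, 52 were at least as bright on replicate 1, 154 on replicate 2, and 180 on replicate 3, which gave a detection p of 0.0556, 0.165, and 0.192. Replicate 1 was the highest, and all 3 values stayed below the background level of their array. On the linear scale *Gjb1* stood 7.61, 4.67, and 3.60 intensity units above the median of the controls, where the background level stood 11.9, 13.0, and 12.3 units above it. Its standard errors over beads were 3.73, 3.94, and 3.90 units. The probe was carried by 24, 26, and 23 beads, and at most 1.23% of 1-probe symbols had fewer on any array, so this gene was measured on unusually few beads.

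*Gjb5*, the gene of Cx31.1, had log2 signals of 6.58, 6.51, and 6.39, with 136, 222, and 433 of the 936 controls at least as bright. Its detection p was 0.145, 0.237, and 0.463. *Gjb6*, the gene of Cx30, had log2 signals of 6.53, 6.47, and 6.39, with 375, 406, and 433 controls at least as bright and a detection p of 0.401, 0.434, and 0.463. On replicate 3 the same number of controls exceeded both genes. *Gjb6* was the member closest to the middle of the controls, from 0.442 to 1.01 intensity units above their median, less than its bead standard errors of 2.91 to 3.12 units. *Gjb5* lay 4.49 and 3.40 units above that median on replicates 1 and 2 and 0.442 on replicate 3, with bead standard errors of 3.22, 2.96, and 3.20 units.

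**Figure D2:**
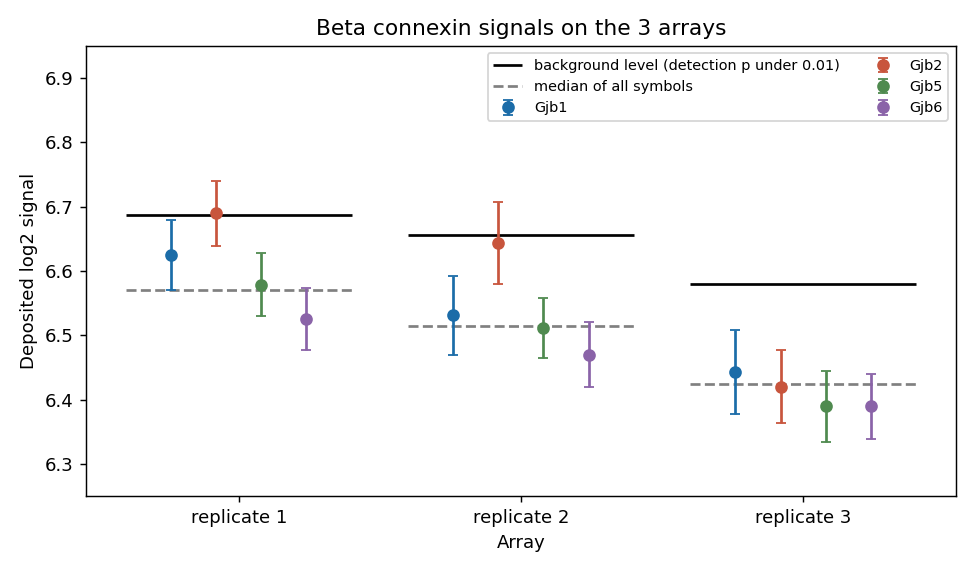
Deposited log2 signal of *Gjb1*, *Gjb2*, *Gjb5*, and *Gjb6* on each of the 3 arrays, with bars for the standard error over beads, the background level as a solid line, and the median of all symbols as a dashed line. Every point lies below the solid line except *Gjb2* on replicate 1, which lies on it at 6.69.

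By the mean signal over the arrays the 4 genes lay in the order *Gjb2*, *Gjb1*, *Gjb5*, and *Gjb6*, with means of 6.58 (SD 0.14, n = 3), 6.53 (SD 0.09, n = 3), 6.49 (SD 0.10, n = 3), and 6.46 (SD 0.07, n = 3). Taken within each array, *Gjb2* minus *Gjb1* was 0.06, 0.11, and -0.02 on replicates 1, 2, and 3, a mean of 0.05 (SD 0.07, n = 3) that did not exceed its spread. *Gjb1* minus *Gjb5* was 0.05, 0.02, and 0.05, with a mean of 0.04 (SD 0.02, n = 3), and *Gjb5* minus *Gjb6* was 0.05 and 0.04 on replicates 1 and 2 and nil to the second decimal on replicate 3, with a mean of 0.03 (SD 0.03, n = 3). Of these 9 differences, 1 was larger than its bead standard error, that of *Gjb2* and *Gjb1* on replicate 2, with a standard error of 0.09. Whether the deposited bead standard error of *Gjb2* is that of the mean of its 3 probes is not known. How well each probe hybridizes also sets its signal, so the order is that of the signals and not of transcript abundance. In percentiles of all symbols, *Gjb2* stood at 66.5, 68.3, and 48.8 on replicates 1, 2, and 3. *Gjb1* stood between 54.4 and 60.6, *Gjb5* between 37.4 and 52.2, and *Gjb6* between 34.9 and 37.5.

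All 4 genes were highest on replicate 1 and lowest on replicate 3, an order shared by 66.6% of all symbols. The medians of all symbols were 6.57, 6.51, and 6.42 on replicates 1, 2, and 3. After each array was centred on its median, 1 of the 4 genes, *Gjb5*, kept that order, as did 30.3% of all symbols. The centred signals of *Gjb1* were 0.05, 0.02, and 0.02, those of *Gjb5* were 0.01, -0.003, and -0.03, and those of *Gjb6* were -0.04, -0.04, and -0.03. *Gjb2* varied most, with centred signals of 0.12, 0.13, and -0.004 (SD 0.07, n = 3). The remaining genes had SDs of 0.02 for *Gjb1*, 0.02 for *Gjb5*, and 0.0058 for *Gjb6*, all below their mean bead standard errors of 0.06, 0.05, and 0.05 on the log2 scale. All 12 differences between arrays of these 4 genes were within 2 deposited bead standard errors after centring. For *Gjb2* this is uncertain, since the deposited value may not be the standard error of the mean of its 3 probes. The largest was that of *Gjb2* between replicates 2 and 3, at 0.13 with a bead standard error of 0.09.

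**Figure D3:**
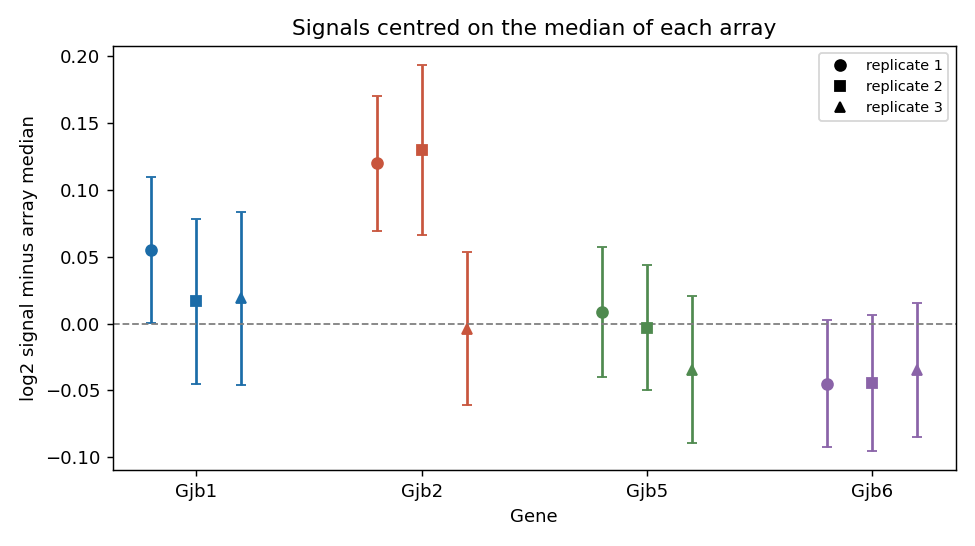
Log2 signal of each gene minus the median of all symbols on the same array, with marker shapes for the 3 replicates and bars for the standard error over beads. *Gjb2* lies at 0.12 and 0.13 on replicates 1 and 2 and at -0.004 on replicate 3, and the other genes stay within 0.06 of the median.

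Relative to the background level, after correction with the normexp model and quantile normalization, the mean log2 level was -0.23 (SD 0.38, n = 3) for *Gjb2* and -0.38 (SD 0.23, n = 3) for *Gjb1*. It was -0.47 (SD 0.24, n = 3) for *Gjb5* and -0.53 (SD 0.19, n = 3) for *Gjb6*. *Gjb2* reached 0.008 on replicate 1 but stayed at -0.04 and -0.67 on replicates 2 and 3, and its mean without replicate 3 was -0.01. The background level itself was 4.69 and 4.81 on replicates 1 and 2 and 5.06 on replicate 3 after normalization, a shift that enters the SD of every gene. The normalized levels themselves had SDs of 0.05 for *Gjb1* and *Gjb5*, 0.0063 for *Gjb6*, and 0.20 for *Gjb2* (n = 3). A level under the background level is a limit of the assay and does not show that the transcript was absent.

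**Figure D4:**
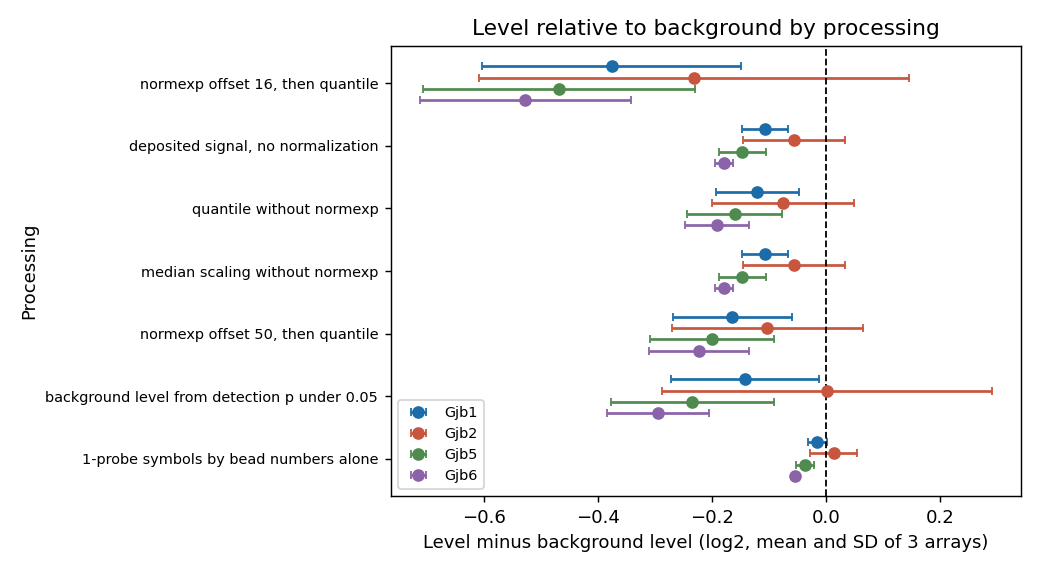
Mean log2 level of each gene minus the background level, with bars for the SD over 3 arrays, under 7 ways of processing. All means lie below 0 except *Gjb2* with the looser background level (0.0017) and with 1-probe symbols taken by bead numbers alone (0.013).

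Of the 19 connexin symbols, 13 met the detection threshold on no array, and the 4 beta connexins were among these. Detection on all 3 arrays was found for 2 symbols. One was *Gja1*, which encodes Cx43 and had log2 signals of 11.90, 12.25, and 11.47, with 0 of the 936 controls as bright on any array. The alpha connexin *Gja4* had a detection p of 0.0459, 0.0160, and 0.0363, and its median was below those of all 4 beta connexins. Of the 9 further symbols detected on no array, *Gja4* included, 2 had a lower median detection p than *Gjb1* and 1 had a lower one than *Gjb2*. Of the 4 symbols that met the threshold on 1 array, *Gja10* had a detection p of 0.00748 and *Gja5* one of 0.00274 there. The value of *Gja5*, read by 5 probes, is a combined one and is not comparable with that of a single probe. Its log2 signal on that array, replicate 1, was 6.61, below the background level of 6.69. None of the beta connexins described here met the threshold on any array.

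**Figure D5:**
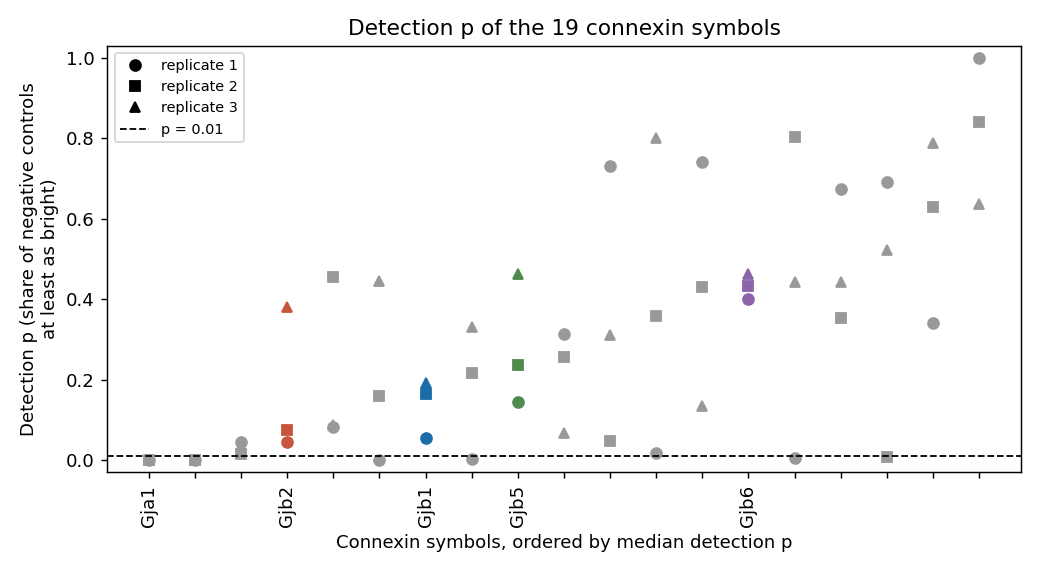
Share of negative controls at least as bright (detection p) on the 3 arrays (marker shapes) for the 19 connexin symbols, ordered by their median, with the beta connexins in colour, *Gja1* named, the others in grey, and the threshold of 0.01 as a dashed line. The value of symbols with several probes is a combined value. The 4 beta connexins lie between 0.0448 and 0.463.

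Of 14 genes whose products bind, traffic, or turn over connexins or form related channels, 5 were detected on all 3 arrays, 35.7% against 20.6% of all symbols. They included *Cnst*, for consortin, which carries connexins to the membrane, *Ctnnb1*, for beta-catenin, *Tjp1*, for the scaffold ZO-1, and *Tsg101*, of the endosomal sorting machinery. Their mean log2 signals were 7.74 (SD 0.16, n = 3), 9.04 (SD 0.67, n = 3), 6.87 (SD 0.28, n = 3), and 7.63 (SD 0.44, n = 3). Of 7 transcription factors linked to beta connexin genes in other tissues, 1 was detected on all 3 arrays. It was *Tfap2c*, which encodes an AP-2 factor, with a mean log2 signal of 7.68 (SD 0.28, n = 3). Of the 7, 5 met the threshold on no array, as did 67% of all symbols. *Sox10*, which activates *Gjb1* in Schwann cells, was among these 5. *Egr2*, also of the 7, met it on replicate 2 alone, with a detection p of 0.00427.

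Genes of the differentiated tissues in which beta connexins are best known were read against the shares of all symbols, 67% detected on no array and 20.6% on all 3. None of 8 hepatocyte genes and none of 7 cochlear or astrocyte genes met the threshold on any array. Of 7 Schwann cell and oligodendrocyte genes, *Pmp22* was detected on all 3 arrays, and of 8 epidermal genes *Krt10* and *Lor* were, 14.3% and 25.0%, which lie near that share. Of 11 genes of the embryonic region, which the samples are labelled as, 8 were detected on all 3 arrays, among them *Cer1*, *Mesp1*, *Mixl1*, and *Otx2*. *Hesx1* met the threshold on no array. All 12 visceral endoderm genes were detected on all 3 arrays as well. Of 12 genes of extraembryonic ectoderm and trophoblast, 5 were, among them *Cdx2* and *Rhox5*, and 6 met the threshold on no array. The mean log2 signal of the 11 embryonic region genes was 7.84, 7.57, and 7.34 on replicates 1, 2, and 3. The mean log2 signal of the 12 visceral endoderm genes was 9.37, 9.52, and 8.63 on the same arrays. All 9 gene lists examined had their lowest mean on replicate 3, where the deposited signals of all 4 beta connexins and the median of all symbols were also lowest. The part of any of these tissues in the signals of the 4 beta connexins was not tested. In such bulk samples, fewer cells of a type and less RNA per cell cannot be told apart.

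Among 39 further connexin, partner, and regulator symbols, the pattern over the 3 arrays most like that of *Gjb1* was that of *Gja3*, with a root mean square difference of 0.02 in the log2 levels after normexp and quantile normalization, each symbol centred on its own mean. The differences that follow are on the same normalized scale. *Sox10* followed at 0.02. For *Gjb5* the closest were *Sp3* at 0.02 and *Tfap2c* at 0.02, and for *Gjb2* they were *Sp3* and *Tfap2c*, both at 0.12. For *Gjb6* they were *Panx2* and *Gjb1*, both at 0.04. Of these matched symbols, *Gja3*, *Sox10*, *Sp3*, *Panx2*, and *Gjb1* met the detection threshold on no array, and *Tfap2c* met it on all 3. With 3 arrays such closeness is common. Of all symbols on the array, 787 were at least as close to *Gjb1* as *Gja3* was, 803 as close to *Gjb5* as *Sp3*, 4957 as close to *Gjb2* as *Sp3*, and 5086 as close to *Gjb6* as *Panx2*.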

How the data were processed

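The authors hybridized biotinylated cRNA to 3 Illumina Mouse-6 arrays and deposited log2 signals per gene symbol that were not normalized between arrays. Each signal came with the mean number of beads, a standard error of the signal over beads, and a detection p-value. The paper names Partek, and whether background was subtracted from the deposited signals is not given in the sources used here. A cut-off that it sets on normalized levels was not used. The genes and lists were chosen with earlier results of these data known. The detection p-value deposited by the authors was used at thresholds of 0.01 and 0.05. A symbol counted as read by 1 probe where its bead numbers were whole and its detection p was a whole multiple of 1 in 936 within 0.002 of a step on all arrays, which held for 21986 of 22662 symbols with whole bead numbers. The second condition was added after the data were seen. From these, normexp parameters were fitted, an offset of 16 was added, and quantile normalization followed (limma 3.58.1, R 4.3.3). The median of the controls was the median intensity of such symbols with a detection p of 0.49 to 0.51. Named genes followed a rule, which took all 4 beta connexins, connexins detected on an array or under 0.05 on all 3, up to 4 detected genes of each list in alphabetical order, and the 2 closest patterns. *Cdh1*, *Egr2*, *Hesx1*, *Sox10*, and *Gja3* as a neighbour were named after their values were seen. Older symbols were looked up in the RefSeq gene table, and some genes are not reported here. No test was made. Alternatives were other detection limits, normalizations, background levels, and leaving out each replicate. Python 3.11.15 and pandas 2.3.3 were used.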

Additional observations from a re-analysis of the deposited data

How the results depend on the processing

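The count of beta connexins detected stayed at 0 under each of 9 alternatives. No beta connexin had a detection p under 0.01 on any array. The result was therefore fixed in advance for the limit of 0.001 and for detection on at least 1 or 2 arrays. It was also fixed for leaving out each replicate (0 to 0). With detection on at least 1 array, connexin symbols detected rose from 2 to 6 and all symbols from 6357 to 10172, since a single array was then enough. Without a replicate these counts were 2 each time and 6524 to 7427. The level relative to background of *Gjb1* was -0.38, and -0.11 on the deposited signals or with median scaling, -0.12 with quantile normalization alone, and -0.14 with a background level from a detection p under 0.05. That of *Gjb5* was -0.47, and -0.15, -0.15, and -0.16 under the first 3 of these, and -0.20 with an offset of 50. That of *Gjb6* was -0.53, and -0.18, -0.18, -0.19, -0.22 with an offset of 50, and -0.29 with the looser background level. Without normexp the scale near background is compressed, so values lie closer to 0. Median scaling moves a gene and the background level of its array together, so it equals the deposited signals here. With 1-probe symbols taken by bead numbers alone, a setting chosen after seeing the data, the levels were -0.015 for *Gjb1*, 0.013 for *Gjb2*, -0.038 for *Gjb5*, and -0.054 for *Gjb6*, and the cause was not tested. *Gjb2* was -0.23, and 0.0017 with the looser background level, so 34 of 36 alternatives over the 4 genes lay below 0. Of these 36, 16 differed from the main setting by more than its SD over the 3 arrays. Without a replicate the levels were -0.49 to -0.26 for *Gjb1*, -0.35 to -0.01 for *Gjb2*, -0.57 to -0.34 for *Gjb5*, and -0.61 to -0.43 for *Gjb6*. No paired analysis was possible because all arrays belong to 1 group. The brightness of the controls limits these values, since a probe had to exceed the control median by 11.9 to 13.0 intensity units to be called.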
